A study of Danio rerio with 11 samples.

Results

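Genes of calcium handling in muscle and of calcineurin regulation were examined across 11 single-colour zebrafish arrays of wild-type and spt mutant embryos. The genes are atp2a1, pvalb1, pvalb2 and rcan3, chosen by gene symbol from the array annotation, which gives each of the 4 genes a single probe set. They are 4 of 8793 named genes and 4 of 15502 probe sets. The choice was made with results of the 21-somite comparison known, so the members' values in that comparison are a description and carry no test. The gene lists used further below were also chosen with earlier results of these data known.

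In a muscle fibre, contraction begins when calcium leaves the sarcoplasmic reticulum and ends when it is taken back. The pump encoded by atp2a1 (SERCA1) returns calcium to the reticulum of fast fibres, and parvalbumins, encoded by pvalb1 and pvalb2 among others, are soluble proteins that bind calcium in the cytosol and speed relaxation. Calcium also activates the phosphatase calcineurin, which in mammals dephosphorylates NFAT transcription factors and acts on fibre type. Proteins of the RCAN family, to which rcan3 belongs, bind calcineurin and modulate its activity.

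The mutant gene is tbx16 (spadetail, spt), which encodes a T-box transcription factor of the mesoderm. Embryos called spt were homozygous for its b104 allele (spt b104/b104) and those called wild-type were spt+/+. All came from a cross that also brought in a transgene with GFP under the pax2a promoter. At the 4/5-somite stage, GFP-positive cells were sorted from dissected embryos as intermediate mesoderm, a few pooled embryos per sample, and their RNA was amplified over repeated rounds (2 wild-type and 3 spt arrays). At the 21-somite stage, tail tissue behind the yolk-sac extension without the tail tip was pooled from many embryos not selected for GFP, and its RNA was not amplified (3 wild-type and 3 spt arrays). This tissue holds somites and presomitic mesoderm together with notochord, spinal cord and intermediate mesoderm. RNA was extracted from separate clutches. A further wild-type array of the earlier stage, set aside by the authors, was not analysed here.

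Signals of at least 100 were reached by 67.6% to 71.1% of probe sets on the 4/5-somite arrays and by 80.8% to 84.8% on the 21-somite arrays. At the 21-somite stage tbx16 itself was lower in spt at the brighter of its probe sets, with a log2 fold change of -1.49 (SE 0.18, limma adjusted p = 0.00650). Its other probe set gave -0.75 (SE 0.16) and did not pass the test (limma adjusted p = 0.108). At the 4/5-somite stage the mean tbx16 signals were near or below 100 in both genotypes. The pax2a probe set of higher signal in spt intermediate mesoderm read 268 ± 0.609 in wild type (SD, n = 2) and 941 ± 393 in spt (SD, n = 3), which did not pass the test (limma adjusted p = 0.624). The other pax2a probe set went the other way, at 160 ± 5.72 in wild type and 115 ± 27.1 in spt (limma adjusted p = 0.688). No probe set passed at the 4/5-somite stage (0% of 15502), where the smallest limma adjusted p was 0.0634 and 1116 probe sets (7.2%) had an unadjusted p under 0.05. At the 21-somite stage 79 probe sets were called lower in spt and 28 higher, 0.69% of all, and 7.44% had an unadjusted p under 0.05.

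Of the 4 genes, rcan3 alone separated the genotypes in the tail. Its normalized signal was 525, 562 and 687 in the wild-type tail and 236, 230.3 and 172 in the spt tail. Every spt array lay below every wild-type array, which 6.2% of all probe sets also showed, while 6.01% showed the reverse. The means were 591 ± 85.1 in wild type and 213 ± 35.6 in spt (SD, n = 3 each), a 2.78-fold lower signal in spt, or a log2 fold change of -1.41 (SE 0.18). Only 0.271% of probe sets had a lower log2 fold change. Leaving out each array in turn moved this value between -1.48 and -1.28. In a bulk tissue, fewer cells of a type and less RNA per cell cannot be told apart.

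In the sorted intermediate mesoderm rcan3 gave low and overlapping signals. They were 111 and 75.9 in wild type and 129.98, 81.3 and 120.03 in spt. The log2 fold change was 0.21 (SE 0.25, limma adjusted p = 0.801), and without wild-type replicate 2 it was -0.023. The wild-type tail stood highest among the groups, followed by the spt tail, while the spt and wild-type intermediate mesoderm overlapped below them. Each stage was normalized on its own, and the median deposited signal of an array was 152 to 167 at the earlier stage and 261 to 293 in the tail, so ratios between the stages carry this difference in scale. For rcan3 the tail mean was 6.34 times the intermediate mesoderm mean in wild type and 1.93 times in spt. With all 11 arrays normalized together, a comparison added after seeing the data, the ratios were 3.94 and 1.15, and the spt tail and spt intermediate mesoderm then overlapped. Stage, tissue, sorting and RNA amplification differ together between these groups and cannot be told apart, and the difference between the stages in the effect of genotype was not tested. The share of all probe sets that separate the stages was not computed. Separation between stages is therefore only a description, here and for the other members below.

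**Figure D1:**
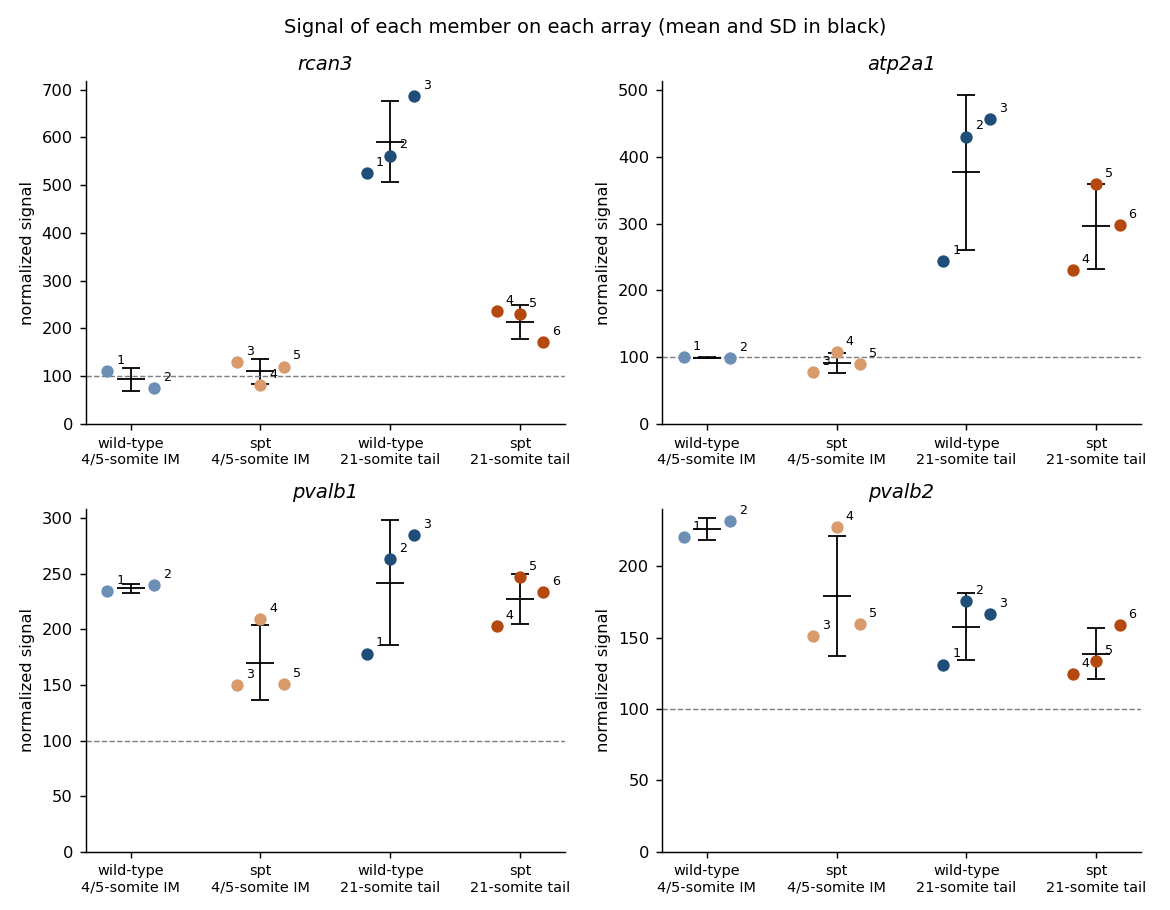
Normalized signal (vertical axis, linear, from 0) of rcan3, atp2a1, pvalb1 and pvalb2 on each of the 11 arrays, by group, with the replicate number beside each point, the group mean and SD in black and a dashed line at 100; IM is sorted intermediate mesoderm. In the tail the rcan3 spt arrays, at 172 to 236, lie below the wild-type arrays, at 525 to 687, and the other genes overlap.

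The signal of atp2a1 was higher in the tail than in the sorted cells and overlapped between the genotypes at both stages. In the tail it was 244, 430.5 and 456 for wild type and 231, 359 and 298 for spt. Wild-type replicate 1 and spt replicate 4 were the low arrays of their groups, and the other spt values fell between the lowest wild-type array and the next. The means were 377 ± 116 in wild type and 296 ± 63.9 in spt (SD, n = 3 each), with a log2 fold change of -0.30 (SE 0.26), and 6.43% of probe sets had a lower one. This value ran from -0.57 to -0.14 when single arrays were left out.

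At the 4/5-somite stage atp2a1 read 99.8 and 98.99 in wild type and 78.2, 108 and 89.4 in spt. A single array of the 5 reached a normalized signal of 100. The log2 fold change was -0.11 (SE 0.16, limma adjusted p = 0.833). Tail means were 3.79 times the intermediate mesoderm mean in wild type and 3.23 times in spt, with all tail arrays above all arrays of sorted cells of the same genotype. With all 11 arrays normalized together the ratios were 2.28 and 1.95, and the groups still did not overlap.

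The parvalbumin genes did not separate the genotypes in the tail. For pvalb1 the wild-type arrays read 178, 263 and 285 and the spt arrays 203, 247 and 233, so that all the spt values lay inside the wild-type range. The log2 fold change was -0.06 (SE 0.19). It changed sign without wild-type replicate 2 (0.0061), wild-type replicate 3 (0.060) or spt replicate 4 (0.012).

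For pvalb2 the tail signals were 131, 176 and 166 in wild type and 124, 134 and 159 in spt, again overlapping. The log2 fold change was -0.16 (SE 0.16), and 17.5% of probe sets had a lower one. Both parvalbumins thus lay much closer to no difference than rcan3 did.

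In the intermediate mesoderm pvalb1 read 234 and 239.6 in wild type and 149.8, 209 and 150.8 in spt. All 3 spt arrays lay below both wild-type arrays, a pattern found in 14.5% of probe sets at this stage. The log2 fold change was -0.46 (SE 0.23), which did not pass the test (limma adjusted p = 0.688). For pvalb2 the signals were 221 and 231 in wild type and 151, 227 and 159 in spt, with a log2 fold change of -0.33 (SE 0.25, limma adjusted p = 0.720). For both genes spt replicates 3 and 5 were low and spt replicate 4 was near the wild-type arrays.

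Neither parvalbumin gene had all its tail arrays above those of the sorted cells in either genotype. The wild-type mean of pvalb1 in the tail was 1.02 times that in the intermediate mesoderm, with overlapping arrays. For pvalb2 every wild-type tail array lay below both wild-type intermediate mesoderm arrays, and the intermediate mesoderm mean was 1.43 times the tail mean. In spt both genes overlapped between the stages. With all 11 arrays normalized together every tail array of both genes lay below the intermediate mesoderm arrays of its genotype, with wild-type intermediate mesoderm means 1.70 times the tail mean for pvalb1 and 2.46 times for pvalb2. The separation of the stages for pvalb1 thus depended on the normalization, and the share of all probe sets that separate in this way was not computed. These values do not show whether the parvalbumin signals come from muscle.

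The array carries control probe sets for AsRed2 and DsRed1, red fluorescent proteins that zebrafish lack, whereas the reporter of this cross is green. Their deposited signals varied between arrays too. In the intermediate mesoderm AsRed2 read 254 and 281 in wild type and 192, 319.9 and 161 in spt, and DsRed1 read 237 and 228 in wild type and 113, 209.9 and 117 in spt. In both, as in pvalb1 and pvalb2, spt replicates 3 and 5 were the low arrays.

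In the tail AsRed2 read 132, 207 and 166 in wild type and 118, 155 and 181 in spt, with wild-type replicate 1 and spt replicate 4 again lowest in their groups. DsRed1 there read 346, 574 and 460 in wild type and 327, 441 and 454 in spt. Likeness was measured as the root mean square difference between log2 profiles, each centred on its own mean over the arrays of a stage. For comparisons with control probe sets the profiles were of deposited signals, which keep differences in scale between arrays. For pvalb2 and AsRed2 in the tail this difference was 0.0935, and 164 of 15502 probe sets (1.06%) were closer to AsRed2. For pvalb1 and DsRed1 in the intermediate mesoderm it was 0.120, with 206 probe sets (1.33%) closer, and in the tail 0.159, with 9.80% closer. For pvalb1 and AsRed2 the shares closer were 5.77% in the intermediate mesoderm and 16.2% in the tail. For pvalb2 they were 2.38% with AsRed2 and 2.71% with DsRed1 in the intermediate mesoderm, and 2.31% with DsRed1 in the tail.

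With AsRed2 subtracted on each array, the difference between spt and wild type in the tail was -0.01 on the log2 scale for pvalb2 and 0.10 for pvalb1, both with overlapping groups. For rcan3 it was -1.25 with AsRed2 and -1.23 with DsRed1 subtracted, without overlap. In the intermediate mesoderm the pvalb1 difference was -0.23 with AsRed2 and 0.15 with DsRed1 subtracted, with overlapping groups. For pvalb2 it was -0.10 with AsRed2, with overlap, and 0.27 with DsRed1, without overlap. The sign for both genes thus depended on which control was used. For atp2a1 at that stage it was 0.14 with AsRed2, with overlap, and 0.51 with DsRed1, without overlap. DsRed1 itself had a 1.59-fold lower mean in spt there, without overlap, so subtracting it raises spt relative to wild type. Without subtraction, 14.5% of all probe sets had every spt array below wild type at that stage and 12.4% every one above. The shares after subtraction were not computed at either stage. On the log2 scale of deposited signals, wild-type pvalb2 averaged -0.09 relative to AsRed2 and -1.45 relative to DsRed1 in the tail. In the intermediate mesoderm these values were -0.19 and -0.01. For wild-type pvalb1 they were 0.46 and -0.90 in the tail and -0.13 and 0.05 in the intermediate mesoderm. For wild-type atp2a1 in the tail they were 1.02 and -0.34, and for wild-type rcan3 1.71 and 0.35. What part of the parvalbumin signal is unspecific was not tested. These controls were examined after the members' values had been seen.

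**Figure D2:**
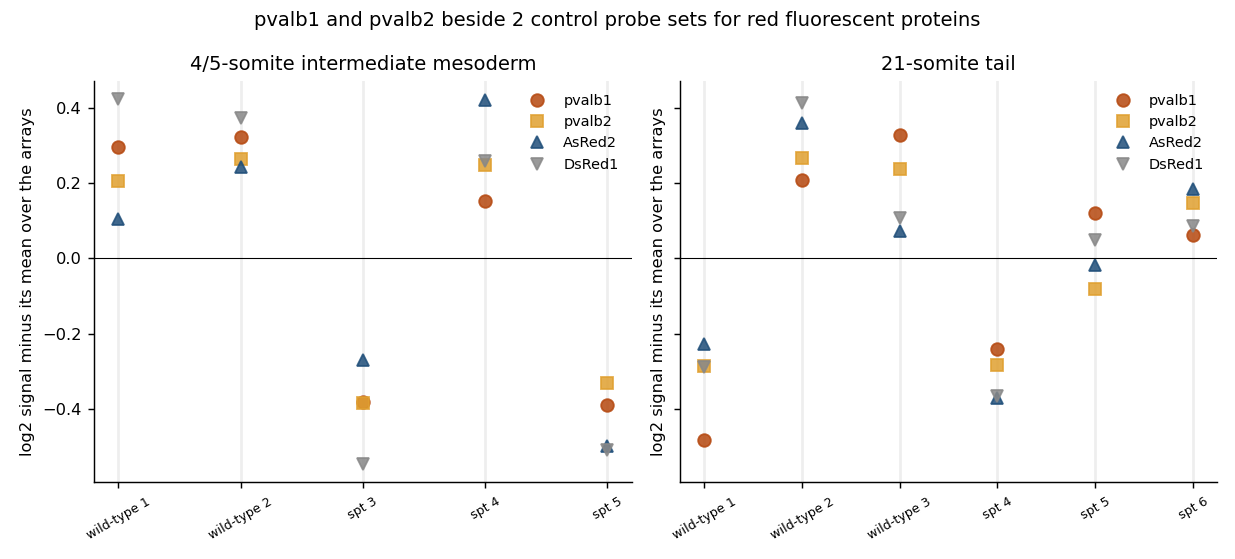
Log2 of the deposited signal plus 16, minus its mean over the arrays of a stage (vertical axis), of pvalb1, pvalb2 and the AsRed2 and DsRed1 control probe sets on each array of the 4/5-somite intermediate mesoderm (left) and the 21-somite tail (right). In the left panel all 4 probe sets are low on spt replicates 3 and 5, and in the right panel on wild-type replicate 1 and spt replicate 4.

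Control probe sets for actc1b, an actin of skeletal and cardiac muscle, lie at the 3′ end, the middle and the 5′ end of the transcript, and they gave unequal differences. In the tail the 3′ probe set read 2515, 3689 and 3927.5 in wild type and 1129, 1419.7 and 916 in spt, a 2.92-fold lower mean in spt without overlap. The 5′ probe set read 205, 375 and 454 in wild type and 177, 336 and 298 in spt, a 1.27-fold lower mean with overlap. The middle probe set lay between them at 1.58-fold, also with overlap. The brightest actc1b probe set outside the controls had normalized means of 4375 in wild type and 3241 in spt. This was a 1.35-fold lower mean with overlap (limma adjusted p = 0.696). Its identifier is of the kind that marks cross-hybridizing probes, and other actc1b probe sets are not given for the tail. Another actin gene, acta1a, had means of 5950 in wild type and 2797 in spt, without overlap. Its log2 fold change was -1.11 (SE 0.19, limma adjusted p = 0.0375).

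The tail profiles of the members were compared with these controls. For pvalb1 24.5% of probe sets were closer to the 3′ control and 2.81% to the 5′ control, and for pvalb2 15.2% and 6.56%. For atp2a1 the profile difference from the 5′ actin probe set over the tail arrays was 0.101, and only 10 of 15502 probe sets were closer to it. For rcan3 the difference from the 3′ actin probe set was 0.178, and 1 probe set was closer, while 58.0% were closer to the middle control and 90.8% to the 5′ control. The measure includes the size of the genotype difference, and rcan3 and the 3′ control both fell far in spt. Their closeness follows largely from that and carries no test. The ratio of the 3′ to the 5′ actin signal was 8.66 to 12.2 in the wild-type tail and 3.07 to 6.38 in the spt tail, whereas for gapdh, a glycolytic enzyme, it was 0.605 to 0.851 in wild type and 0.848 to 1.56 in spt. The part of RNA quality or probe position in the atp2a1 values was not tested.

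Wild-type replicate 1 was the lowest wild-type array of the tail for all 4 members and for 34.2% of all probe sets. Spt replicate 4 was the lowest spt array for 3 of the 4 members and for 39.0% of all probe sets. Both held together for 3 of the 4 members and for 24.3% of all probe sets. Without both arrays, an alternative chosen after seeing the data, the log2 fold change in the tail was -1.51 (SE 0.21) for rcan3, -0.40 (SE 0.18) for atp2a1, -0.21 (SE 0.16) for pvalb2 and -0.17 (SE 0.16) for pvalb1. All kept their sign.

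**Figure D3:**
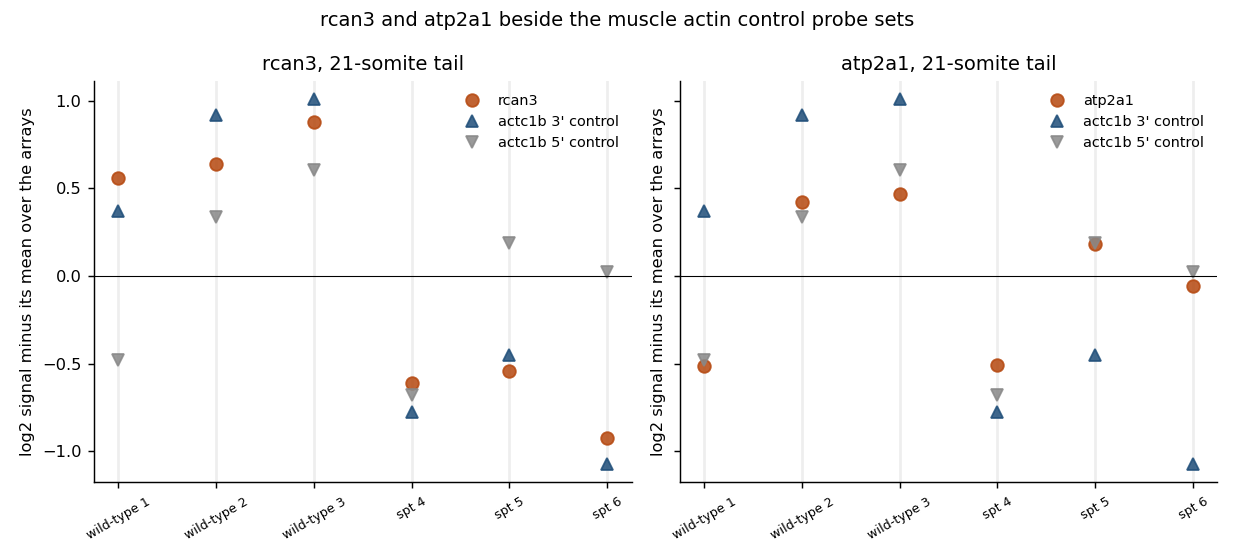
Log2 of the deposited signal plus 16, minus its mean over the 6 tail arrays (vertical axis), of rcan3 (left) and atp2a1 (right) with the 3′ and 5′ actc1b control probe sets. The rcan3 points lie near the 3′ control, high on the wild-type arrays and low on the spt arrays, and the atp2a1 points lie near the 5′ control, low on wild-type replicate 1 and spt replicate 4.

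The genes whose tail profile was most like each member were sought among 7981 genes with a signal of at least 100 on at least 3 of the 6 arrays. This search used normalized signals, so its differences are not directly comparable with those from the control probe sets. For rcan3 they were tpma (0.0472), a fast muscle tropomyosin, chrna1 (0.104), a subunit of the muscle acetylcholine receptor, actn3b (0.117), a sarcomeric α-actinin, cpn1 (0.138) and cygb1 (0.145), a cytoglobin. The tpma signal was 1188, 1264 and 1419.8 in wild type and 539, 508 and 404 in spt. All 5 had log2 fold changes between -1.40 and -1.24, as a profile close to that of rcan3 requires.

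For atp2a1 the closest genes were ccl19a.1 (0.0747), a chemokine, atpaf1 (0.0831), an assembly factor of the mitochondrial ATP synthase, adra2b (0.0854), an adrenergic receptor, qdprb.1 (0.0879) and pdcd4a (0.0981). For pvalb1 they were anxa6 (0.0122), a calcium-dependent membrane-binding protein, rnf26 (0.0367), cyp24a1 (0.0425), a vitamin D hydroxylase, elavl2 (0.0483), a neuronal RNA-binding protein, and rbm46 (0.0489). For pvalb2 they were ndufaf1 (0.0365), an assembly factor of respiratory complex I, prpf4 (0.0407), a splicing factor, pde6ha (0.0409), a subunit of a photoreceptor phosphodiesterase, ccdc174 (0.0442) and mrpl9 (0.0477), a mitochondrial ribosomal protein. No gene of contractile muscle stands among the closest genes of atp2a1, pvalb1 or pvalb2. The likeness measure includes the size of the genotype difference, so a gene that fell as far as tpma could not stand there. The absence therefore does not show whether these signals come from muscle.

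Relatives of the members on the array did not pass the test at either stage. In the tail rcan1b had a log2 fold change of -0.10 (SE 0.23) and rcan2 of -0.07 (SE 0.16), against -1.41 for rcan3. The SERCA genes gave -0.01 (SE 0.23) for atp2a1l, -0.20 and -0.17 for the 2 probe sets of atp2a2a, and 0.09 (SE 0.12) for atp2a2b.

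Among the other parvalbumins in the tail, values ran from -0.60 (SE 0.37) for pvalb7 to 0.84 (SE 0.40) for pvalb9. The pvalb9 signal spread from 185 to 751 over the wild-type arrays. In the intermediate mesoderm atp2a1l had the lowest value among these relatives, -1.23 (SE 0.79, limma adjusted p = 0.704), with spt arrays from 80.3 to 553. Parvalbumin genes resemble each other in sequence, and in the RefSeq annotation 5 of them lie on chromosome 3 and 3 on chromosome 12. Cross-hybridization among their probe sets was not tested. The atp2a1 probe set shares the cluster part of its identifier with probe sets annotated to other genes, among them hmga1a, lrrn1 and sox3. The annotation gives it no sequence record, unlike the other members. What the probe set detects was not tested, and this limit holds for all atp2a1 values here.

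**Figure D4:**
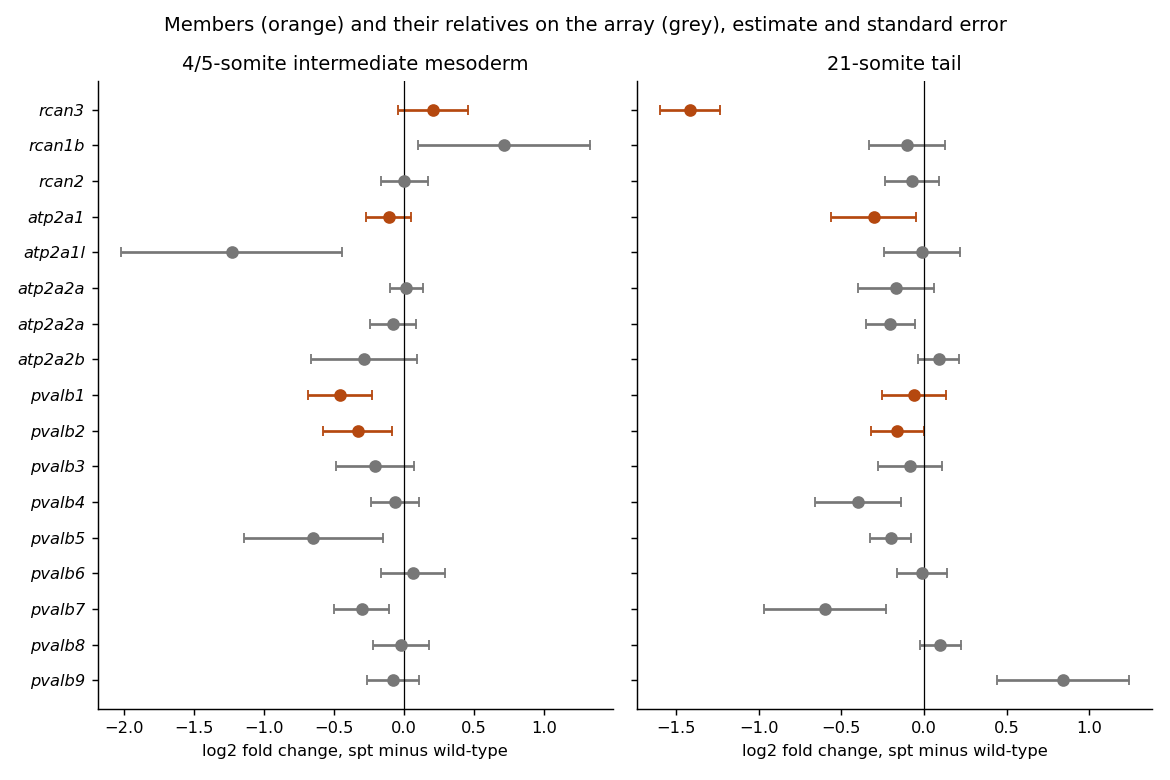
Log2 fold change of spt minus wild type (horizontal axis) with its standard error for the members (orange) and the other RCAN, SERCA and parvalbumin probe sets of the array (grey), at the 4/5-somite stage (left) and the 21-somite stage (right). In the tail rcan3, at -1.41, lies apart from rcan1b, at -0.10, and rcan2, at -0.07.

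The wider calcium and calcineurin genes were counted in lists, with the brightest probe set for each gene. The lists held 140 genes, and 64 of them were measured by a probe set with 1 gene symbol. The unmeasured genes are not covered by these counts. These lists, and the muscle and tissue lists below, were chosen with earlier results of these data known. The limma adjusted p-values are over all probe sets, but the counts per list are a description and no independent test of a list. Of the 64 genes at the 21-somite stage, 3 were called lower in spt and 0 higher, beside 0.51% and 0.181% of all probe sets. The median log2 fold change of the 64 was 0.04, beside 0.00 over all probe sets, and 26 had values below 0 and 38 above.

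Among 9 genes of calcium release from the sarcoplasmic reticulum, cacng1a, the γ subunit of the muscle calcium channel, fell. Its mean signal was 277 in wild type and 95.5 in spt, a log2 fold change of -1.40 (SE 0.14, limma adjusted p = 0.00301). In the same list tmem38a, a cation channel of the reticulum membrane, gave -1.08 (SE 0.20) and missed the threshold (limma adjusted p = 0.0565), and it is named after its values were seen. None of 15 pump and store genes and none of 26 calcium-binding protein genes was called in either direction.

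Among 14 genes of the calcineurin pathway, read at the brightest probe set of each, the transcription factor genes mef2d and mef2ca fell. Their log2 fold changes were -1.14 (SE 0.16, limma adjusted p = 0.0129) and -0.83 (SE 0.14, limma adjusted p = 0.0431). For mef2d a different probe set was the brightest at the 4/5-somite stage, and its tail value is not given here. MEF2 factors act with myogenic regulators on muscle genes and are also targets of calcineurin in mammals. The mef2ca call was lost whichever single array was left out (limma adjusted p of 0.0880 to 0.315, log2 fold changes of -0.88 to -0.78) and in 1 fit of all 11 arrays (limma adjusted p = 0.0683). The mef2d call was lost without spt replicate 5 (limma adjusted p = 0.0633) or spt replicate 6 (0.0669), with log2 fold changes of -1.20 to -1.04 over all single omissions. The catalytic calcineurin subunit genes ppp3cb and ppp3cca gave 0.16 (SE 0.17) and -0.14 (SE 0.15), and nfatc4 gave 0.31 (SE 0.27).

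**Figure D5:**
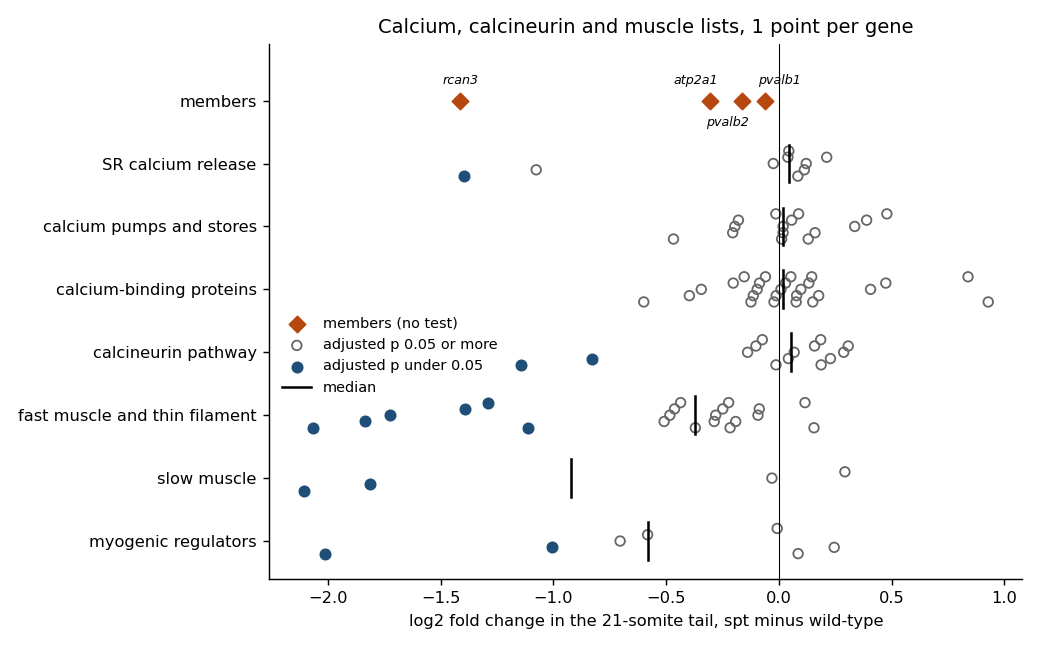
Log2 fold change of spt minus wild type in the 21-somite tail (horizontal axis) for the members (orange, without a test) and for each measured gene of the calcium, calcineurin and muscle lists, with filled points for a limma adjusted p under 0.05 and a black bar at each list's median; SR is sarcoplasmic reticulum. The medians of the calcium and calcineurin lists lie between 0.02 and 0.06, and that of the fast muscle list at -0.37.

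Some markers of muscle fell in the tail, and most of the listed ones did not pass the test. Of 21 fast muscle and thin filament genes, 6 were called lower and 0 higher, with a median of -0.37, among them tnnc2.2, a fast troponin C, at -2.06 (SE 0.21, limma adjusted p = 0.00307), and tpma at -1.39 (SE 0.16, limma adjusted p = 0.00520). Another 13 of the list had values below 0 and 2 above 0 without passing. Of 4 slow muscle genes 2 were called lower, and of 7 myogenic regulators 2, including myog at -2.01 (SE 0.21, limma adjusted p = 0.00334). The gene tpm3, listed with slow muscle, gave 0.29 (SE 0.11, limma adjusted p = 0.514), with every spt array above the wild-type arrays. Its wild-type mean was 2781 in the sorted intermediate mesoderm and 2580 in the tail, each stage normalized on its own, so its signal was not limited to the tail. Some listed fast muscle genes also had higher wild-type means in the sorted cells than in the tail. They include tnnt3b, at 1918 and 172, and tnni2a.4, at 841 and 124. Others rose in the tail, such as tnnc2.2, from 161 to 1474, and tpma, from 161 to 1291. When single arrays were left out, limma adjusted p-values reached 0.0543 for neb and 0.0574 for myl10 (both without wild-type replicate 2), 0.163 for smyhc1 (lost without wild-type replicate 2 or 3) and 0.192 for myod1 (lost whichever array other than wild-type replicate 3 was left out), while tnnc2.2, tpma and myog stayed called. The summed signal of the fast muscle list ranged from 17464 to 21469 in the wild-type tail and from 9948 to 11151 in the spt tail. The brightest genes weigh most in this sum, so it does not show a fall of the whole list. They are acta1a, with means of 5950 in wild type and 2797 in spt, and actc1b, with 4375 and 3241. The actc1b probe set is the one of the cross-hybridizing kind and was not called.

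Genes of other tissues in the dissected tail were also called. Of 9 presomitic mesoderm genes 4 were called lower, as were 10 of 10 red blood cell genes, and 1 of 7 intermediate mesoderm genes was called higher. All 7 intermediate mesoderm genes had values above 0, with a median of 0.52. Among the presomitic genes, the mespba call was lost without spt replicate 5 or 6 (limma adjusted p up to 0.112), and the mespaa call whichever array other than wild-type replicate 3 was left out (up to 0.162). No notochord gene (0 of 9), neural gene (0 of 13) or epidermal gene (0 of 10) was called, but all 13 neural genes had values above 0, with a median of 0.36, and all 10 epidermal genes, with a median of 0.25. The summed neural signal ranged from 10921 to 12450 in wild type and from 15253 to 16074 in spt. Tissue make-up was not measured, and its part in the rcan3 difference was not tested.

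At the 4/5-somite stage none of the 64 calcium and calcineurin genes was called in either direction, as for all probe sets. The smallest p-values belonged to orai1b, a store-operated calcium channel, with a log2 fold change of 0.85 (SE 0.23, limma adjusted p = 0.620), and camk2d2, a calcium- and calmodulin-dependent kinase, with -0.45 (SE 0.13, limma adjusted p = 0.634). The highest value was that of s100a1, a calcium-binding protein, at 2.71 (SE 1.25, limma adjusted p = 0.688), whose wild-type signal of 218 ± 295 (SD, n = 2) differed widely between its arrays. The median of the 64 genes was -0.03, beside -0.01 over all probe sets.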

How the data were processed

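The authors quantified Affymetrix Zebrafish Genome Arrays with MAS5 5.0 and deposited linear intensity values, 1 per probe set and array. Whether and how these values were scaled between arrays is not given in the sources used here. Groups and replicates came from the labels. Of 15617 probe sets, 115 controls were left out of the fits. Gene names came from GEO's platform annotation (10795 probe sets with 1 symbol, 135 with several, 4572 with none), with 1 symbol updated.

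Each stage was quantile normalized on its own, and log2(signal + 16) was modelled by genotype in limma 3.58.1 under R 4.3.3 (empirical Bayes with trend, without covariates), so fold changes of dim probe sets are understated. P-values were adjusted by Benjamini-Hochberg over all 15502 probe sets, with a threshold of 0.05. Group means are of normalized signals, and control probe sets are given as deposited. The fit was tested on simulated data. Alternatives were other normalizations and pseudocounts, a filter on low signals, limma without a trend, 1 fit of all 11 arrays, and leaving out arrays. Profiles, lists and figures were made with Python 3.11.15, numpy 2.4.6, pandas 2.3.3 and matplotlib 3.10.9.

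The members and gene lists were chosen with earlier results of these data known. Genes named were the members, up to 3 called per list and direction, the 2 of smallest p per calcium list at the 4/5-somite stage, and the 5 closest profiles per member; any other gene was picked once its values were known, and some named by the rule are given only in counts. The number of arrays limits the precision. No sequences were used here.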

Additional observations from a re-analysis of the deposited data

How the results depend on the processing

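No paired analysis was possible because the labels give the genotypes of a stage no replicate number in common. In the tail the counts of 79 lower and 28 higher became 51 and 11 when all 11 arrays were fitted together, and 42 and 8 without wild-type replicate 1 and spt replicate 4 (chosen after seeing the data), where 1 calcium or calcineurin gene was called lower and the tbx16 call was lost (limma adjusted p = 0.0907). Leaving out single arrays gave 44 to 74 lower, 12 to 29 higher and 1 to 3 calcium or calcineurin genes lower, the last falling to 1 without spt replicate 5 or 6. The tail log2 fold change of pvalb1 ran from -0.25 to 0.060 (without wild-type replicate 3), with 0.0061 without wild-type replicate 2 and 0.012 without spt replicate 4, and that of pvalb2 from -0.28 to -0.09. At the 4/5-somite stage 0 calls became 4 lower when all arrays were quantile normalized together and 1 lower in limma without a trend. They became 168 lower and 170 higher in 1 fit of all arrays. That fit shares the spread between the stages, and the earlier arrays were the noisier. Correlations between arrays of the same genotype were 0.864 to 0.896 there and 0.958 to 0.990 in the tail. Its calls at the earlier stage may therefore rest on too small a spread. When single arrays were left out at the 4/5-somite stage, the value of rcan3 ran from -0.023 (without wild-type replicate 2) to 0.44. A fit with a lone wild-type array assumes that it varies like the others. No other alternative tried (other pseudocounts, deposited signals, the signal filter) turned the sign of a member. Low signals at the 4/5-somite stage limit what can be seen for atp2a1 and rcan3. At both stages pvalb1 and pvalb2 did not stand clearly above the red protein controls, which limits what can be seen for them.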
